A study of Arabidopsis thaliana with 18 samples.

Results

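The heat response of hda6 seedlings was compared with that of wild-type seedlings of Arabidopsis thaliana, gene by gene. The quantity described here is a difference of differences: the log2 difference between hda6 and Col-0 at 37 °C minus the log2 difference between them at 22 °C. A value above 0 means that a gene gained more, or lost less, with heat in hda6 than in Col-0, and a value below 0 means the opposite. It could be tested in 20598 of the 32548 genes in the expression table, those for which the authors' deposited tables held an adjusted p at both temperatures. Of the other 11950 genes, 139 reached 1 FPKM (fragments scaled to exon length and to library size) in one or more of the 4 groups, and 42 of these did so in heated plants alone.

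Whole seedlings were taken at 7 days of age, after growth at 22 °C on plates under long days (16 h light, 8 h dark). Each plant group was either kept at 22 °C or held at 37 °C for 1 h before harvest. The 4 groups used here hold 3 libraries each, 12 of the 18 in the series: Col-0 at 22 °C, Col-0 at 37 °C, hda6 at 22 °C and hda6 at 37 °C. Col-0 is labelled wild type. The hda6 plants are labelled as an EMS line, that is, a line that carries a chemically induced mutation, and the labels name 1 line and no allele, so an effect of HDA6 and of any other change carried by that line cannot be told apart. Nothing in the labels tells if replicate libraries stem from independent sowings, and the errors given here measure the spread between these libraries. The library totals behind the FPKM values, read back from those values, were 38.1 to 53.6 M. Per group, 48.0% to 48.5% of the total was assigned to genes. Whether the totals count fragments or single reads is not known.

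HDA6 is a histone deacetylase: it removes acetyl groups from histone tails and is known in Arabidopsis for keeping transposons, repeats and some genes silent together with DNA methylation. Heat acts on transcription through heat shock factors (HSFs), which bind heat shock elements in promoters and switch on chaperones within minutes. Small heat shock proteins hold unfolding proteins, HSP101 and HSP70 resolve aggregates, and the chaperones of the endoplasmic reticulum (ER), such as BiP, calnexin and calreticulin, fold secreted and membrane proteins under the unfolded protein response.

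The HDA6 transcript itself did not check the label. It stood at 6.83 FPKM in Col-0 and 7.59 FPKM in hda6 at 22 °C, and at 3.96 and 3.44 FPKM at 37 °C. Its difference of differences was -0.30 ± 0.16 (log2 ± SE, adjusted p = 0.37). A gene known to be silenced by DNA methylation did separate the genotypes: QQS, an orphan gene that lies among repeats, had 0.327, 0.644 and 0.716 FPKM in the 3 Col-0 libraries at 22 °C and 21.66, 22.4 and 26.4 FPKM in the 3 hda6 libraries. Its excess in hda6 was 5.37 ± 0.23 on the log2 scale at 22 °C and 5.78 ± 0.45 at 37 °C, and the difference between these was not called (adjusted p = 0.796). Of the 3 silenced loci tested, 2 were called higher in hda6 at 22 °C and 1 at 37 °C. Only 1 of the 3 reached 1 FPKM in a group. Values per library here and in the following are given from the largest to the smallest library of a group. Shoot and root markers were both present, with 22 of 23 photosynthesis genes and 11 of 14 root epidermis and root hair genes at 1 FPKM or more. Of 11 seed storage genes, 0 reached 1 FPKM, and of 6 floral organ identity genes 1 did. The SD of a library around its group mean was 0.110 to 0.125 log2 at 22 °C and 0.183 to 0.213 log2 at 37 °C. This SD does not show how far the calls rest on 1 library. Without the Col-0 library of 53.4 M at 22 °C, limma voom on recovered reads called 1619 genes, against 1317 with all libraries.

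In all, 1148 of the 20598 genes tested (5.57%) responded to heat differently in hda6 and Col-0 at an adjusted p under 0.05. The difference was above 0 in 465 genes (2.26% of those tested) and below 0 in 683 (3.32%). The genes below 0 also differed by more: their median was -0.60 and 103 of them differed by at least 2-fold, against a median of 0.29 and 27 genes among those above 0. The median over all genes tested was 0.01. The split depends on the scale: with both tables moved to the scale of the FPKM columns, a shift of 0.05 log2, 245 genes lay above 0 and 859 below. With a t distribution with 8 degrees of freedom in place of the normal one, 14 genes were called above 0 and 35 below.

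The genes below 0 mostly parted from Col-0 in the heated plants. Of the 683, 554 (81.1%) were lower or higher than Col-0 at 37 °C and not called different at 22 °C, and 27 showed the reverse. Over all genes tested hda6 was higher in 6.26% and lower in 5.11% at 22 °C, and higher in 9.12% and lower in 9.47% at 37 °C. In the authors' deposited table of heat in Col-0, heat raised 430 of the 683, 289 (42.3%) by at least 2-fold, and lowered 144. It raised 33% of all genes tested and lowered 31.8%. Of the 20597 genes tested with a promoter sequence, it raised 1866 by at least 2-fold. That table's log2 values lie a median of 1.01 above the log2 ratios of the FPKM columns, so whether heat raised or lowered a gene can turn with the scale. For the genes GTE2, MSL6, AGP1, AT5G03380, OFP13, HSP15.4, NCED3, CSD2 and HDA8, whose change with heat is described below, its sign was the same on both scales in both genotypes. The difference of differences is free of this shift, which both genotypes share to within 0.05 log2. The genes above 0 were more mixed. Of the 465, 260 were called at 37 °C alone, 106 at 22 °C alone, 47 at both on the same side, 24 at both on opposite sides and 28 at neither. On the FPKM scale the 260 became 138. Heat raised 333 of these genes in the same deposited table, 52 (11.2% of the 465) by at least 2-fold, beside the 1866 of 20597 above. The rest of the 333 rose by less than 1 log2 there, under that table's median shift of 1.01. Their direction can therefore turn on the FPKM scale. Because whole seedlings were sequenced, fewer cells of a type and less RNA per cell cannot be told apart in any of these values.

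**Figure D1:**
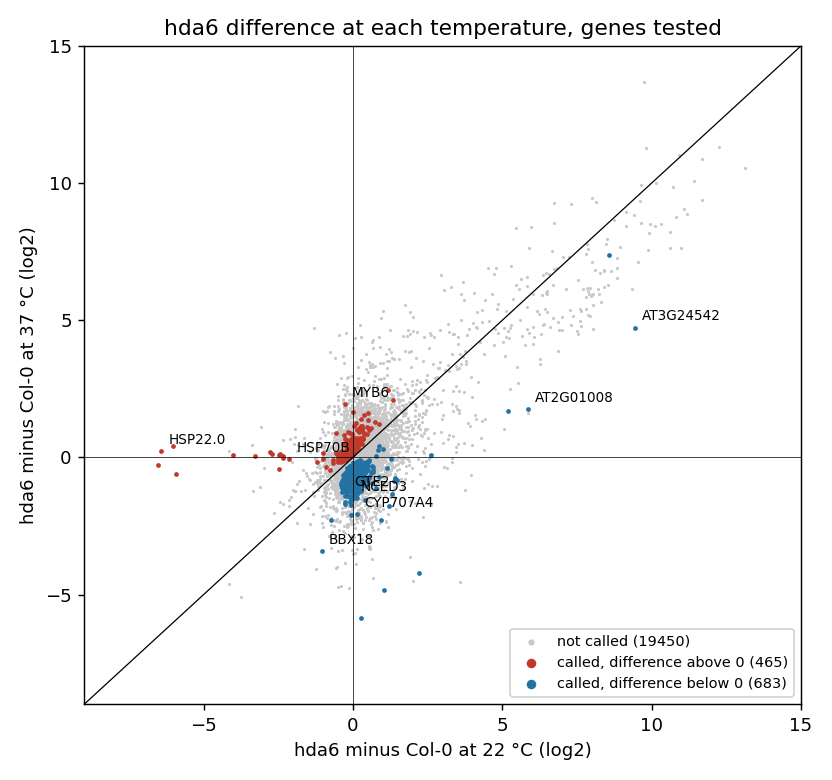
Each point is 1 of the 20598 genes tested, with its hda6 minus Col-0 difference (log2) at 22 °C on the horizontal axis and at 37 °C on the vertical axis; the diagonal marks an equal difference at both. The 683 genes called below 0 (blue) sit mainly beneath the origin, at no difference at 22 °C and a negative one at 37 °C, while the heat shock genes among the 465 called above 0 (red) sit to the left, at a negative difference at 22 °C and almost none at 37 °C.

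The gene with the largest score below 0 was BBX18 (AT2G21320), a B-box zinc finger protein known as a regulator of seedling growth in light and warmth. The 3 Col-0 libraries had 9.80, 9.96 and 9.34 FPKM at 22 °C and 21.4, 21.1 and 22.5 FPKM at 37 °C. The 3 hda6 libraries had 5.46, 4.21 and 4.95 FPKM at 22 °C and 1.97, 2.23 and 1.93 FPKM at 37 °C. The hda6 libraries lay below all Col-0 libraries at both temperatures, and the gap was much wider in the heated plants. The difference of differences was -2.37 ± 0.17 (adjusted p = 3.68e-41).

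Other genes with high scores below 0 were also raised by heat in Col-0 and lower in heated hda6. GTE2 (AT5G10550), a bromodomain protein of the family that binds acetylated histones, had 97.2, 85.4 and 82.0 FPKM in heated Col-0 and 36.3, 36.1 and 35.2 FPKM in heated hda6. At 22 °C its levels were 17.98, 15.9 and 16.6 FPKM in Col-0 and 15.9, 14.4 and 15.6 FPKM in hda6, so the gap opened with heat (difference -1.11 ± 0.09, adjusted p = 4.58e-29). MSL6 (AT1G78610), a member of the mechanosensitive channel family, went from 4.51, 4.57 and 4.70 FPKM to 11.2, 10.5 and 10.3 FPKM in Col-0. In hda6 it had 4.36, 4.77 and 4.54 FPKM at 22 °C and 4.62, 4.96 and 4.58 FPKM at 37 °C, so the genotypes overlapped at 22 °C and lay apart at 37 °C. Its difference was -1.11 ± 0.11 (adjusted p = 3.18e-20).

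AGP1 (AT5G64310), an arabinogalactan protein of the cell surface, rose to 44.97, 53.5 and 51.0 FPKM in the Col-0 libraries and to 26.4, 25.7 and 24.3 FPKM in the hda6 libraries, from 15.41 and 18.4 FPKM on average at 22 °C. Its difference was -1.17 ± 0.12 (adjusted p = 5.57e-20). AT5G03380, annotated as a heavy metal transport protein, had 58.2, 53.9 and 54.8 FPKM in heated Col-0 and 30.9, 31.6 and 30.9 FPKM in heated hda6, a difference of -0.68 ± 0.07 (adjusted p = 3.67e-17). GASA1 (AT1G75750), a gibberellin-regulated small secreted protein, was higher in hda6 at 22 °C and lower at 37 °C. Its 3 libraries at 22 °C had 104, 109 and 106 FPKM in Col-0 and 119, 128 and 138 FPKM in hda6, while the group means at 37 °C were 361 and 239 FPKM. Its difference was -0.82 ± 0.07 (adjusted p = 7.24e-29).

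**Figure D2:**
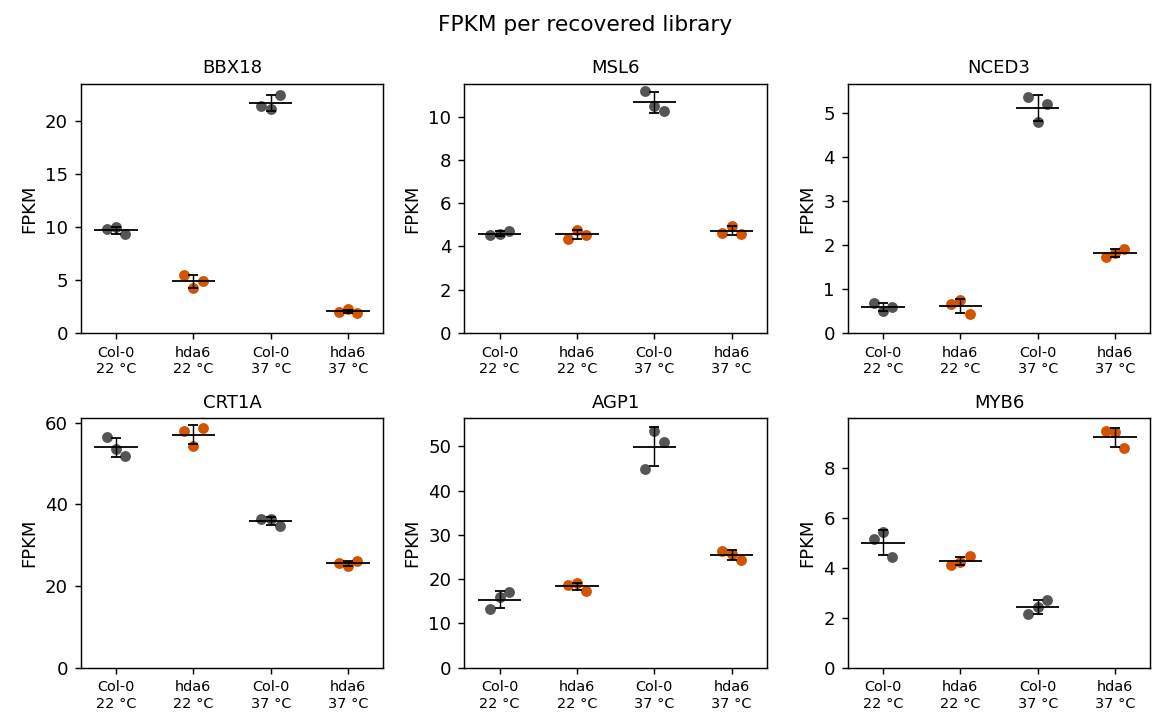
FPKM in each recovered library (points), with the group mean (line) and SD (bar, 3 libraries), for 6 genes in Col-0 (grey) and hda6 (orange) at 22 °C and 37 °C. For BBX18, MSL6, NCED3, CRT1A and AGP1 the 3 heated hda6 libraries lie below the 3 heated Col-0 libraries, and for MYB6 they lie above.

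Among the 12 largest negative differences were further genes that differed at 37 °C. CYP707A4 (AT3G19270), one of the hydroxylases that break down abscisic acid, had 3.62, 3.38 and 3.15 FPKM in heated Col-0 and 0.647, 1.04 and 0.745 FPKM in heated hda6, with 0.245 and 0.279 FPKM at 22 °C (difference -2.20 ± 0.48). OFP13, an ovate family protein, fell with heat in both genotypes, to 0.752, 0.490 and 1.08 FPKM in Col-0 and 0.114, 0.169 and 0.252 FPKM in hda6 (difference -2.04 ± 0.48). AT1G50040, annotated as a formin-like protein, had 1.403, 1.048 and 0.831 FPKM in heated Col-0 and 0.294, 0.318 and 0.383 FPKM in heated hda6 (difference -1.67 ± 0.39). AT2G24592, an RNA with no coding annotation, had a difference of -1.60 ± 0.51. Its adjusted p of 0.0349 became 0.0795 to 0.0897 by limma voom without any 1 of 3 heated libraries, those with totals of 53.6, 44.2 and 42.7 M.

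In a second kind of large negative difference hda6 carried the gene at a higher level at 22 °C, with or without a lower level at 37 °C. UGT73C1, a glycosyltransferase, stood at 0.307 FPKM in Col-0 and 0.538 FPKM in hda6 at 22 °C, and at 2.40 and 1.11 FPKM at 37 °C (difference -1.89 ± 0.42). It was thus higher in hda6 at 22 °C and lower in hda6 at 37 °C. BGLU28, a beta-glucosidase linked to glucosinolate breakdown, had 0.471, 0.364 and 0.450 FPKM in Col-0 and 1.12, 1.26 and 1.14 FPKM in hda6 at 22 °C, against 0.282, 0.269 and 0.396 and 0.207, 0.118 and 0.241 FPKM at 37 °C (difference -2.14 ± 0.50). PRF4, a profilin, and AT4G19430, an uncharacterized protein, had differences of -2.23 ± 0.55 and -2.54 ± 0.47. For AT4G19430 the levels at 37 °C were close, at 18.9, 21.5 and 19.5 FPKM in Col-0 and 20.6, 19.3 and 23.49 FPKM in hda6, and the difference lay at 22 °C.

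Among called genes with at least 1 FPKM in a group and above 0 in all 4, the 3 most negative differences belonged to loci almost silent in Col-0 at 22 °C. Genes under that level had more negative values, among them the defensin genes PDF1.2 (-6.45 ± 1.47) and PDF1.3 (-6.14 ± 1.56) and IAA33 (-5.86 ± 1.90), which were at or close to 0 in heated hda6 and at no more than 0.526 FPKM in every group. AT3G24542, annotated as a beta-galactosidase related protein, had 0, 1 and 0 reads in the 3 Col-0 libraries and 263, 228 and 202 reads in the 3 hda6 libraries at 22 °C. In the heated plants it had 6, 0 and 0 reads in Col-0 and 43, 48 and 55 reads in hda6, so it remained far higher in hda6 but by less. Its difference of -4.71 ± 1.39 (adjusted p = 0.018) rests on 1 Col-0 read at 22 °C and was not called by limma voom on the recovered reads (adjusted p = 0.124). AT2G01008 and AT3G41762 behaved alike, with 5.25, 5.53 and 5.18 FPKM and 3.61, 3.96 and 2.48 FPKM in hda6 at 22 °C, 1.47, 1.42 and 1.048 FPKM and 2.13, 1.62 and 1.75 FPKM in hda6 at 37 °C, and no more than 0.606 FPKM in any Col-0 library. Their differences were -4.10 ± 0.48 and -3.51 ± 0.53. The genomic span of AT3G41762, from annotated start to end, matches AT2G01008 over its whole length at 98.9% identity. How the reads were shared between the pair is thus uncertain, and they may not be separate events.

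**Figure D3:**
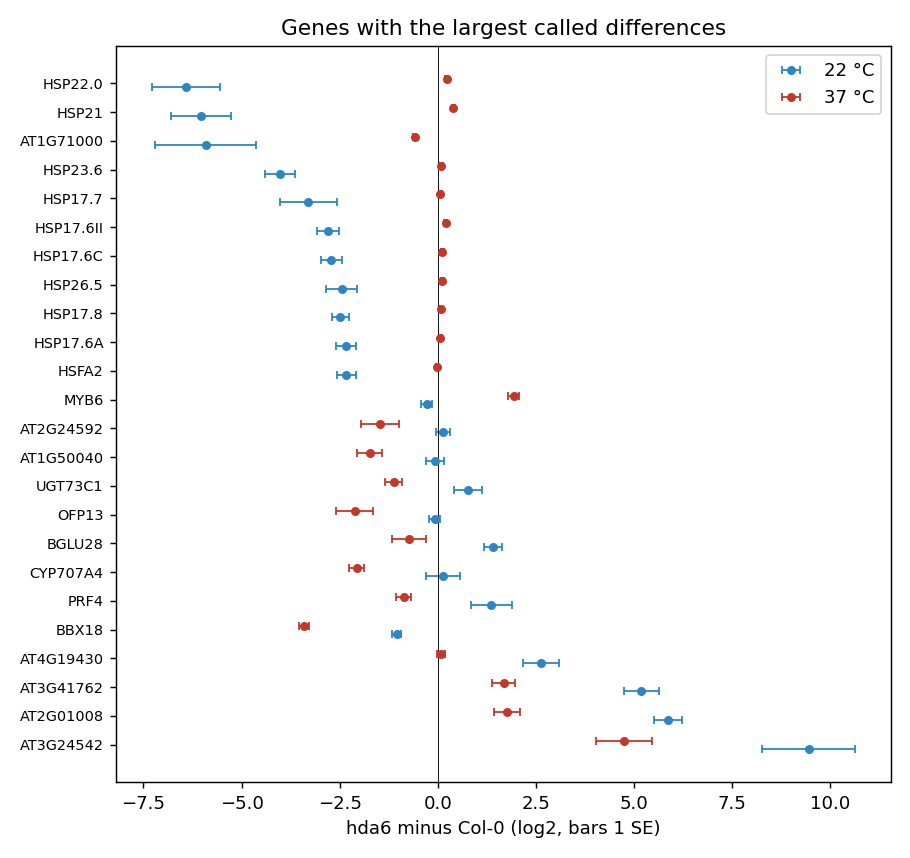
The hda6 minus Col-0 difference (log2, bars 1 SE) at 22 °C (blue) and 37 °C (red) for the 12 genes with the largest called difference of differences in each direction. In the upper 11 genes the blue point lies far below 0 and the red point near 0; MYB6 is the 1 gene of the upper 12 that parted at 37 °C; in the lower 12 the red point lies left of the blue one.

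Above 0, MYB6 (AT4G09460), a transcription factor of the R2R3 MYB family, was the largest gene that parted in the heated plants. Its libraries at 22 °C had 5.16, 5.41 and 4.43 FPKM in Col-0 and 4.12, 4.22 and 4.46 FPKM in hda6. At 37 °C Col-0 had 2.13, 2.43 and 2.72 FPKM and hda6 had 9.45, 9.42 and 8.78 FPKM. The genotypes overlapped at 22 °C and the heated groups lay far apart. The difference was 2.21 ± 0.20 (adjusted p = 6.68e-25), close in size and opposite in sign to that of BBX18.

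The other 11 of the 12 largest positive differences were genes of the heat shock response, and in each the genotypes differed at 22 °C far more than at 37 °C. HSP22.0 (AT4G10250), a small heat shock protein of the endomembrane system, had 106, 84 and 90 reads in the 3 Col-0 libraries at 22 °C and 0, 0 and 3 reads in the 3 hda6 libraries. Its heated levels were 1824 FPKM in Col-0 and 2137 FPKM in hda6. HSP21 (AT4G27670), of the chloroplast, had 107, 96 and 82 reads in Col-0 and 4, 0 and 0 reads in hda6 at 22 °C, and 1045 and 1377 FPKM at 37 °C. Both transcripts were thus close to 0 in hda6 at 22 °C, where Col-0 held 1.92 and 2.05 FPKM, and their differences were 6.65 ± 0.87 and 6.43 ± 0.77. HSP23.6, of mitochondria, had 3.48, 2.11 and 2.70 FPKM in Col-0 and 0.128, 0.140 and 0.266 FPKM in hda6 at 22 °C (difference 4.11 ± 0.39). AT1G71000 had 37, 14 and 21 reads in Col-0 and 0, 1 and 0 reads in hda6 at 22 °C. Its heated levels were 226 FPKM in Col-0 and 150 FPKM in hda6. The difference of AT1G71000, 5.32, turned to -0.10 on FPKM values with a pseudocount of 1.

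The promoters below belong to chaperone genes on which these results turn: 3 with a positive difference set at 22 °C (HSP22.0, HSP17.6C and AT1G71000, a DnaJ co-chaperone) and 2 ER chaperones with a negative difference set at 37 °C (HSP90.7, also called SHEPHERD, and the calreticulin CRT1A). Each is the 250 bases before the annotated start in the RefSeq copy of TAIR10.1, 5′ to 3′ on the gene's strand, and capitals mark matches to the motifs named after them.
HSP22.0, chr4:6370088-6370337, plus strand: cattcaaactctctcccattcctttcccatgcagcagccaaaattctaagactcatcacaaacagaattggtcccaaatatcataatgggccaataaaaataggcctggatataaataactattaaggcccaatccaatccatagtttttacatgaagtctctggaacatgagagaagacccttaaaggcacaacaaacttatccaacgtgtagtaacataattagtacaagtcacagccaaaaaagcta
HSP17.6C, chr1:19980049-19980298, plus strand: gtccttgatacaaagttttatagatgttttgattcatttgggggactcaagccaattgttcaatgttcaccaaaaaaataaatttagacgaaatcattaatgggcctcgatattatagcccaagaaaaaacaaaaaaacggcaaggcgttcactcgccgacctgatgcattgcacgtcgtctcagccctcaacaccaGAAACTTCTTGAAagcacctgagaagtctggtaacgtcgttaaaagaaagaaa
AT1G71000, chr1:26770178-26770427, minus strand: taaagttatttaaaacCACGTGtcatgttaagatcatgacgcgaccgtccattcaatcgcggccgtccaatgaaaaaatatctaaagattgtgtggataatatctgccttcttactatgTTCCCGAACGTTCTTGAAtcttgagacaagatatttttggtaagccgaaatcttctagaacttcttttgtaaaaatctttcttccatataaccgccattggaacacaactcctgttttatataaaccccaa
HSP90.7, chr4:12556059-12556308, minus strand: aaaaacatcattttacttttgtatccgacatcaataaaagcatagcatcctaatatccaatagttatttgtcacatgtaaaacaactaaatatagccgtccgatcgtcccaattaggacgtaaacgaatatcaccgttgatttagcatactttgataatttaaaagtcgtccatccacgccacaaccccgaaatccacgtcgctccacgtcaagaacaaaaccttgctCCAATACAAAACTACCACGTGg
CRT1A, chr1:21092710-21092959, minus strand: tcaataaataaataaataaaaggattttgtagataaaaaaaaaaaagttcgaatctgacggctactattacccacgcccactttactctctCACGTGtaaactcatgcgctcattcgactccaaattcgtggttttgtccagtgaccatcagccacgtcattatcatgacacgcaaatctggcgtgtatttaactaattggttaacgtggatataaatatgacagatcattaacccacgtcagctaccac
The capitals mark a heat shock element in HSP17.6C, and 2 overlapping ones and a G-box (CACGTG) in AT1G71000. In HSP90.7 they mark an ER stress element that overlaps a G-box, and in CRT1A a G-box. The heat shock element is GAA, any 2 bases, TTC, any 2 bases, GAA, or the reverse complement of this. The ER stress element is CCAAT, any 9 bases, CCACG, or the reverse complement of this. These windows of HSP17.6C and HSP90.7 also reach into a neighbouring gene. In HSP22.0 none of these exact letters occurred, which says nothing of other forms of the motifs.

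Over 20597 promoters, the heat shock element occurred in 0.432%, the ER stress element in 0.393% and the G-box in 7.28%. Among the 683 genes below 0 these shares were 1.46%, 1.32% and 11.3%. Among 464 promoters of genes above 0 they were 0.862%, 0.862% and 8.19%. Among 1866 promoters of genes raised at least 2-fold by heat in Col-0 in the authors' deposited table they were 2.04%, 0.697% and 9.91%. Among the 289 of these below 0 they were 2.42%, 1.73% and 13.8% (7, 5 and 40 promoters). Of the 52 of these above 0, 4 promoters held the heat shock element (7.69%), 0 the ER stress element and 8 the G-box. Among these heat-raised genes the heat shock element was thus more frequent above 0 than below, on few promoters (4 of 52 against 7 of 289). The G-box was about as frequent on both sides, in 8 of 52 promoters above 0 and 40 of 289 below. The difference between these shares was not tested. In the lists, the heat shock element was present in 2 of 19 small heat shock promoters and 0 of 34 large chaperone promoters, the ER stress element in 2 of 20 ER folding promoters, and the G-box in 6 of these 20 and in 8 of 21 clock promoters. A match is a description of letters on either strand and not evidence of a bound site.

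Of 19 small heat shock protein genes, all tested, 13 lay above 0 and 0 below (2.26% of all genes above 0), with a list median of 2.39 against 0.01 for all genes. The list's median hda6 difference was -2.33 at 22 °C and 0.12 at 37 °C, and heat raised the list in Col-0 by a median of 10.2 on the log2 scale. HSP17.8 had 4.84, 4.77 and 4.50 FPKM in Col-0 and 0.908, 1.03 and 0.680 FPKM in hda6 at 22 °C, and 4589 and 4824 FPKM at 37 °C (difference 2.55 ± 0.23). HSP17.6C had 3.51, 3.46 and 3.67 FPKM and 0.346, 0.678 and 0.676 FPKM in the same order at 22 °C (difference 2.82 ± 0.27). HSP17.6II, HSP17.7, HSP26.5 and HSP17.6A followed, with differences of 2.99 ± 0.29, 3.36 ± 0.73, 2.56 ± 0.40 and 2.39 ± 0.26. HSP18.2, HSP17.4CIII and HSP17.6B were called at smaller differences of 1.15, 0.97 and 0.64. HSP15.4 was the exception in its response: heat lowered it in Col-0, from 22.2 to 5.85 FPKM and by the deposited table too, and its difference was 0.54 ± 0.17 (adjusted p = 0.0411). It was not called on the FPKM scale (adjusted p = 0.0827) or by limma voom without the Col-0 library of 53.6 M at 37 °C (adjusted p = 0.108). The other 6 genes of the list did not pass, with values from -0.27 to 2.46.

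Among 18 heat shock factors tested, 3 lay above 0 and 0 below (2.26% and 3.32% of all genes tested), and the list median was -0.06. HSFA2, the factor that sustains the response, had 1.75, 1.83 and 1.85 FPKM in Col-0 and 0.309, 0.443 and 0.365 FPKM in hda6 at 22 °C, while its heated levels were 1570.0 and 1545 FPKM. Its difference of 2.31 ± 0.24 (adjusted p = 9.5e-19) therefore lay at 22 °C. HSFA7B and HSFB2A had differences of 2.04 ± 0.53 and 0.53 ± 0.15. HSFA7B also had less transcript in heated hda6, at 347 FPKM against 468 FPKM (difference at 37 °C -0.43 ± 0.04). The 4 HSFA1 genes, the master factors present before heat, were not called.

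The 34 large chaperones and their cofactors went both ways, with 5 above 0 and 6 below (2.26% and 3.32% of all genes tested). Their median was 0.04. Above 0, HSP70B had 4.16, 4.16 and 3.72 FPKM in Col-0 and 0.849, 1.10 and 0.899 FPKM in hda6 at 22 °C, and 2693 and 2562 FPKM at 37 °C (difference 2.06 ± 0.15). HSP101, the disaggregase, had 5.46, 4.80 and 5.01 FPKM and 2.19, 2.36 and 2.30 FPKM at 22 °C (difference 1.04 ± 0.11). The co-regulator MBF1C, the co-chaperone BAG6 and the cytosolic HSP90.1 had differences of 0.60 ± 0.15, 0.52 ± 0.17 and 0.44 ± 0.10. BAG6 was not called on the FPKM scale (adjusted p = 0.0887). With Col-0 at 22 °C lowered as described below, BAG6 and HSP90.1 turned to -0.25 and -0.18 and MBF1C had 0.30, none of them called. Below 0, the gap lay at 37 °C. HSP90.6, the mitochondrial HSP90, had 12.3, 12.3 and 12.1 FPKM in Col-0 and 14.1, 12.9 and 12.5 FPKM in hda6 at 22 °C, against means of 66.1 and 41.1 FPKM at 37 °C (difference -0.74 ± 0.07, adjusted p = 5.78e-22). HSC70-2 reached 76.2 FPKM in heated Col-0 and 45.8 FPKM in heated hda6 (difference -0.84 ± 0.11). The mitochondrial HSP60, the cytosolic HSP90.3 and HSP90.4, and the DnaJ protein J2 had differences of -0.36 ± 0.07, -0.23 ± 0.08, -0.38 ± 0.12 and -0.22 ± 0.07. HSP90.4 did not stay past the threshold by limma voom without 1 library in 3 cases (adjusted p 0.0503 to 0.0957): the Col-0 libraries of 45.2 M at 22 °C and 53.6 M at 37 °C, and the hda6 library of 39.9 M at 37 °C.

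Most of the strongly heat-induced genes stood lower in hda6 than in Col-0 at 22 °C. Taking genes above 100 FPKM in heated Col-0 with a heat response above 8 on the log2 scale gave 44 genes, a set defined after their values were seen. Of these, 22 lay above 0 in the difference of differences and 0 below (2.26% and 3.32% of all genes tested). At 22 °C Col-0 was above hda6 in 40 of the 44 (90.9%, against 39.5% of all genes tested), and above sant-null, the other mutant of the series, in 36. HSFA7A, HSP23.5, the galactinol synthase gene GolS1 and AT1G30070 were the 4 genes higher in hda6. The excess of Col-0 over hda6 at 22 °C was a median of 0.0858% of the level in heated Col-0, and the excess over sant-null a median of 0.0802%. Each of the 3 Col-0 libraries taken alone lay above the hda6 mean by a median of 0.0866%, 0.0838% and 0.0842% of the heated level, over the 41 genes with recovered reads. Both mutants are compared with the same Col-0 libraries. What set the Col-0 level at 22 °C was not tested.

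With 0.0802% of the heated Col-0 level taken off Col-0 at 22 °C, an alternative chosen after the data were seen, 7 small heat shock genes lay above 0 and 1 below, and 1 heat shock factor lay above 0. The large chaperones went from 5 above and 6 below to 1 above and 8 below. HSP22.0, HSP21, HSP23.6, HSP17.6II and HSP70B stayed past the threshold, at 4.57, 5.68, 1.88, 1.70 and 0.94. HSP17.8, HSP17.6C, HSFA2, HSP101, HSP17.7 and HSFA7B did not, at 0.35, 0.65, 0.59, 0.28, 0.80 and 0.85. HSP18.2 and HSP17.4CIII also lost the call, at 0.25 and 0.49, and HSP17.6B turned to -0.53, not called. Only 72 of the genes tested moved by more than 0.1 log2 under this alternative.

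**Figure D4:**
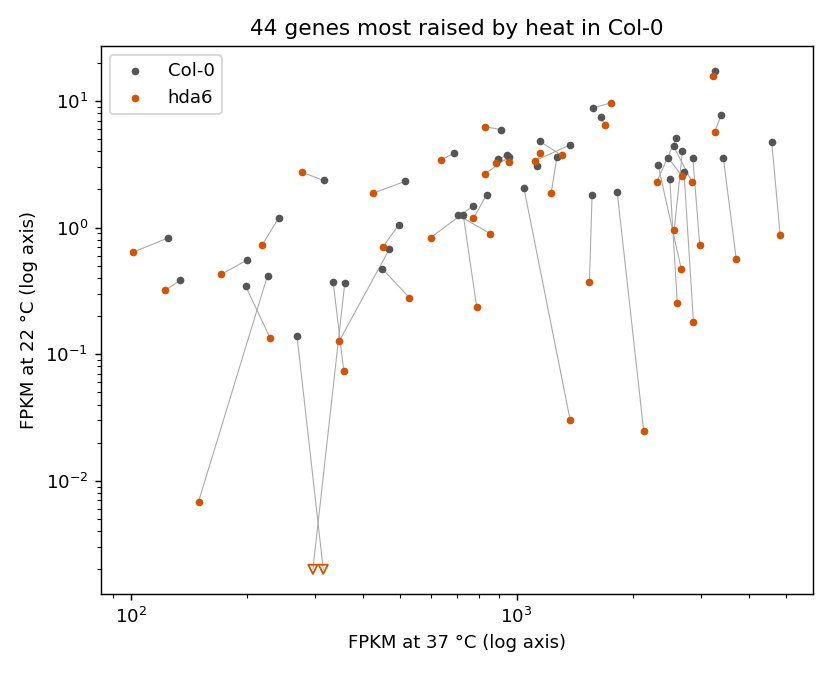
FPKM at 37 °C (horizontal, log axis) and at 22 °C (vertical, log axis) of the 44 genes most raised by heat in Col-0, in Col-0 (grey) and hda6 (orange), with a line joining the 2 values of a gene; open triangles mark the genes listed at 0 in hda6, drawn at the bottom edge. The lines run mostly downward from grey to orange, since Col-0 was above hda6 at 22 °C in 40 of 44 genes, and are short from left to right.

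Several ER folding genes were lower in heated hda6 than in heated Col-0. Of 20 genes, all tested, 6 lay below 0 and 0 above (3.32% of all genes below 0), with a list median of -0.17. The list's median hda6 difference was 0.01 at 22 °C and -0.18 at 37 °C. BIP2, the main BiP chaperone, had 43.0, 39.7 and 39.2 FPKM in Col-0 and 41.1, 39.7 and 39.9 FPKM in hda6 at 22 °C, and means of 235 and 151 FPKM at 37 °C (difference -0.57 ± 0.06, adjusted p = 2.63e-16). The calnexin CNX1 reached 139 FPKM in heated Col-0 and 100.1 FPKM in heated hda6 (difference -0.48 ± 0.06). Of the calreticulins, CRT1A had 36.5, 36.4 and 34.7 FPKM in heated Col-0 and 25.7, 24.9 and 26.1 FPKM in heated hda6, against 56.5, 53.5 and 51.8 FPKM and 57.9, 54.3 and 58.7 FPKM at 22 °C (difference -0.52 ± 0.07, adjusted p = 5.19e-10). CRT1B had a difference of -0.47 ± 0.07. The ER-resident HSP90.7 and its partner ERDJ3B had -0.37 ± 0.06 and -0.27 ± 0.08, the latter past the threshold by limma voom in every case but without the hda6 library of 44.2 M at 37 °C (adjusted p = 0.0639). The sensors IRE1A, IRE1B and BZIP28 and the factor BZIP60 were not called.

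**Figure D5:**
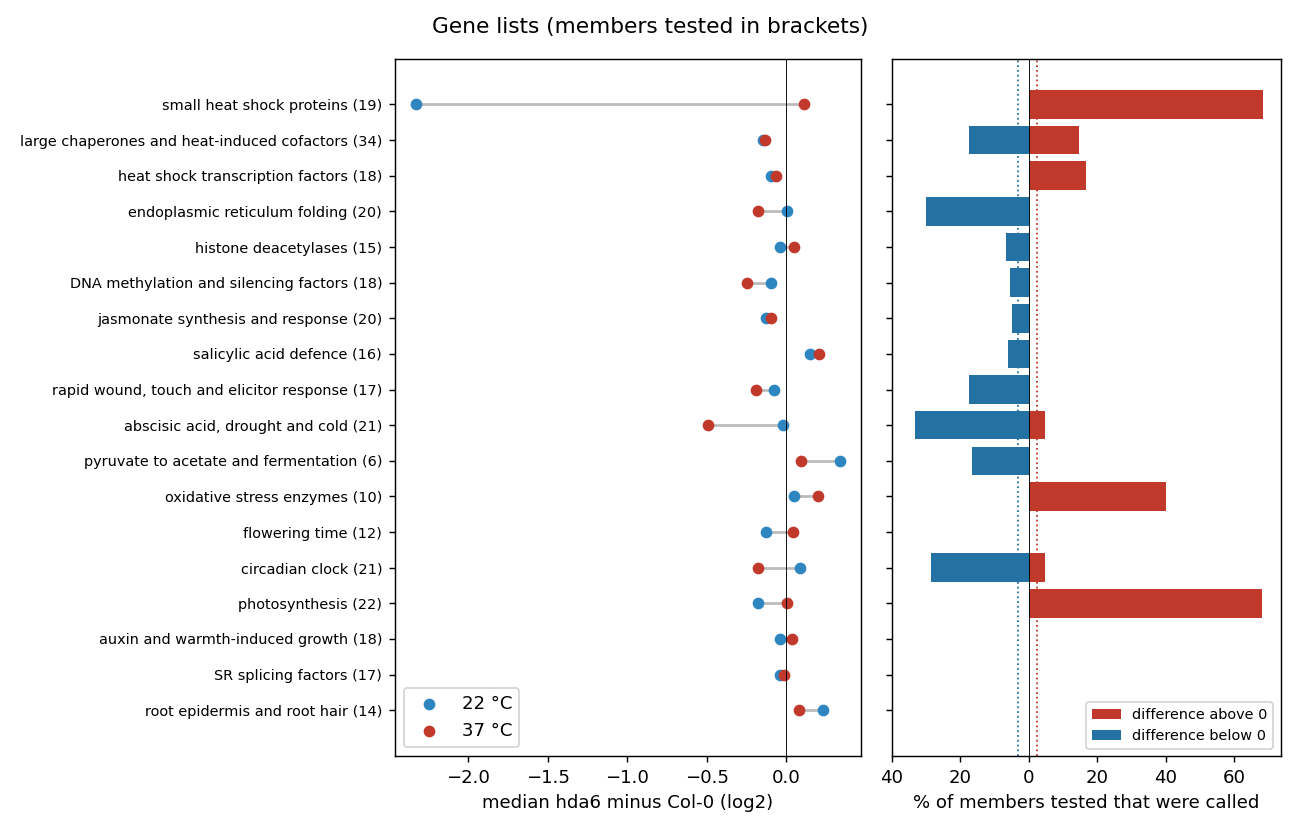
Left, the median hda6 minus Col-0 difference (log2) of each gene list at 22 °C (blue) and 37 °C (red), with the number of members tested in brackets. Right, the percent of those members called above 0 (red) and below 0 (blue) in the difference of differences; dotted lines mark the same over all genes tested, 2.26% and 3.32%.

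Genes of abscisic acid, drought and cold were more often below 0 than above. Of 21 tested, 7 lay below 0 and 1 above (3.32% and 2.26% of all genes tested), with a list median of -0.19. At 37 °C the list's median hda6 difference was -0.49, and 12 members were lower and 3 higher. NCED3, the rate-limiting enzyme of stress-induced abscisic acid synthesis, had 0.686, 0.494 and 0.583 FPKM in Col-0 and 0.653, 0.761 and 0.437 FPKM in hda6 at 22 °C. Heat brought it to 5.38, 4.80 and 5.201 FPKM in Col-0 and 1.74, 1.83 and 1.92 FPKM in hda6, so the heated groups were well apart (difference -1.51 ± 0.28, adjusted p = 1.02e-05). CYP707A3, which degrades the hormone, had a difference of -1.23 ± 0.33, as CYP707A4 above. The phosphatases HAI1 and ABI2, which damp abscisic acid signalling, had -1.14 ± 0.34 and -0.70 ± 0.19. The transcription factor RD26 and the dehydrins ERD10 and COR47 had -0.78 ± 0.19, -0.47 ± 0.08 and -0.26 ± 0.07. RD22 was the member above 0, with 39.4, 41.8 and 40.8 FPKM in heated Col-0 and 56.6, 56.4 and 54.3 FPKM in heated hda6 (difference 0.40 ± 0.06, adjusted p = 8.15e-09). All calls of this list were lost with the t distribution in place of the normal one (adjusted p 0.0544 to 0.258).

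Of 21 clock genes tested, 6 lay below 0 and 1 above (3.32% and 2.26% of all genes tested), with a median of -0.21. PRR9, a day-phase repressor, had 7.92, 7.86 and 7.22 FPKM in Col-0 and 9.56, 8.73 and 8.82 FPKM in hda6 at 22 °C, and 13.8, 12.5 and 12.9 and 10.1, 9.82 and 10.03 FPKM at 37 °C. All 3 hda6 libraries were above Col-0 at 22 °C and below it at 37 °C (difference -0.58 ± 0.11, adjusted p = 1.25e-05). Of the genomic span of PRR9, 33.9% matches AT2G46670 at 99.7% identity, so part of its reads may be shared. GI, PRR7, LNK2, RVE1 and CCA1 had differences of -0.52 ± 0.14, -0.29 ± 0.08, -0.26 ± 0.07, -0.41 ± 0.12 and -0.21 ± 0.06. LHY, the morning partner of CCA1, had 0.28 ± 0.09 and was not called on the FPKM scale. The t distribution in place of the normal one left none of these clock calls (adjusted p 0.102 to 0.277).

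In the rapid wound and touch list 3 of 17 genes lay below 0 and 0 above (3.32% and 2.26% of all genes tested). The list median was -0.18. The zinc finger gene ZAT6 was a 4th, at -0.81 on the FPKM scale (adjusted p = 0.0453) and at -0.74 by limma voom (adjusted p = 0.0472). MYB44, a stress-induced transcription factor, had 13.96, 14.8 and 15.6 FPKM in heated Col-0 and 9.43, 9.24 and 8.88 FPKM in heated hda6, with 10.3 and 11.2 FPKM at 22 °C (difference -0.75 ± 0.10, adjusted p = 1.99e-10). TCH4, a xyloglucan-modifying enzyme, and TCH2, a calmodulin-like protein, had differences of -0.47 ± 0.09 and -0.47 ± 0.12.

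Photosynthesis genes lay above 0 in 15 of 22 tested and below in 0 (2.26% and 3.32% of all genes tested). The values were small: the list median was 0.20 and the highest member 0.37. The list's median hda6 difference was -0.18 at 22 °C and 0.00 at 37 °C, and 20 members were lower in hda6 at 22 °C. On the FPKM scale 8 of the 15 remained called, and every member kept a value above 0. All 15 calls were lost with the t distribution in place of the normal one (adjusted p 0.102 to 0.291). RBCS1A, a Rubisco small subunit, had 5878 FPKM in Col-0 and 5743 FPKM in hda6 at 22 °C, and 4366 and 5333 FPKM at 37 °C (difference 0.37 ± 0.07). The antenna protein genes LHCB5 and LHCA1 had 0.23 ± 0.05 and 0.23 ± 0.06. Root epidermis genes, the markers of the other main organ, showed 0 calls of 14 in the difference of differences. Their summed level was 40.4 FPKM in Col-0 and 51.1 FPKM in hda6 at 22 °C and 13.0 and 15.44 FPKM at 37 °C, and 4 of them were called higher in hda6 at 22 °C. The part of organ proportions in the photosynthesis values was not tested.

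Of 10 oxidative stress enzymes, 4 lay above 0 and 0 below (2.26% and 3.32% of all genes tested). CSD2, the chloroplast copper/zinc superoxide dismutase, had 33.8, 32.8 and 31.4 FPKM in Col-0 and 43.9, 47.8 and 47.8 FPKM in hda6 at 22 °C, and 9.04, 9.52 and 9.10 and 18.6, 20.1 and 20.8 FPKM at 37 °C. It was higher in all hda6 libraries at both temperatures, and heat lowered it less (difference 0.65 ± 0.11, adjusted p = 4.93e-07). CCS, the copper chaperone of that enzyme, and the catalase CAT3 had 0.47 ± 0.16 and 0.22 ± 0.05. The CCS call was lost on the FPKM scale and, by limma voom, without the smallest library of Col-0 at 22 °C, of Col-0 at 37 °C or of hda6 at 37 °C (adjusted p 0.0584 to 0.0822). APX2, a heat-induced ascorbate peroxidase, was listed at 0.368 FPKM in Col-0 and at 0 in hda6 at 22 °C, and at 359 and 297 FPKM at 37 °C. All 4 calls were lost with the t distribution in place of the normal one (adjusted p 0.0752 to 0.303).

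The other lists held 0 or 1 call each by the Wald test, where 5.57% of all genes tested were called. FLD, a histone demethylase homologue of the silencing list, was the 1 member of 18 called: it had 3.01, 2.90 and 2.94 FPKM in Col-0 and 2.86, 2.73 and 2.86 FPKM in hda6 at 22 °C, and 3.33, 3.34 and 3.17 and 1.61, 1.79 and 1.53 FPKM at 37 °C (difference -0.88 ± 0.16, adjusted p = 3.46e-06). Of 15 histone deacetylases tested, HDA8 was called by the Wald test: heat raised it to 22.2, 24.9 and 26.3 FPKM in Col-0 and to 17.3, 17.3 and 18.8 FPKM in hda6 (difference -0.64 ± 0.12, adjusted p = 1.32e-05). By limma voom HDA19 and HDA5, both histone deacetylases, were also called, at 0.24 and 0.37 (adjusted p = 0.0449 and 0.0296). In the jasmonate list 1 of 20 was called, the defensin PDF1.2, on 4, 4 and 1 reads in Col-0 and 12, 14 and 12 reads in hda6 at 22 °C and 19, 9 and 12 and 0, 2 and 0 reads at 37 °C. In the salicylic acid list EDS5, a transporter needed for salicylic acid synthesis, was the 1 of 16 called (-0.69 ± 0.23). Of the 6 genes from pyruvate to acetate, PDC2, a pyruvate decarboxylase, was called (-0.60 ± 0.19). EDS5 dropped out by limma voom when any 1 of 5 libraries was left out, to adjusted p values up to 0.127 without the hda6 library of 40.9 M at 22 °C. Flowering time (12 tested), auxin and warmth-induced growth (18), SR splicing factors (17), root epidermis (14), seed storage (3), floral identity (5) and the 3 silenced loci had 0 calls in either direction, by the Wald test, against 5.57% of all genes tested. Of their 72 members, 3 above 0 and 3 below had an unadjusted p under 0.05, and limma voom called 0 of the 68 with recovered reads. The flowering genes TEM2 and MAF4 had values of -0.42 ± 0.17 and 0.71 ± 0.36 (adjusted p = 0.135 and 0.314).

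Reads per library could be recovered in all 12 libraries for 620 of the 683 genes below 0 and 233 of the 465 above 0. In 598 of the 620 (96.5%) all 3 heated hda6 libraries lay below all 3 heated Col-0 libraries, which held for 18.1% of 19434 genes. In 196 of the 233 they lay above, which held for 17% of genes. These are the same libraries that gave the calls. Highly expressed genes were not recovered, among them the heated levels of most chaperones, for which group means alone are given. Counting is not stated to use strand, so for GTE2, HSP101, MBF1C, J2, AT3G41762, LNK2, FLD, EDS5, TCH2, RVE1 and MYB44 reads from an overlapping gene on the other strand cannot be told apart, and MYB44, HDA6 and AT2G01008 overlap a gene on their own strand.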

How the data were processed

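RNA-seq of whole Arabidopsis seedlings was analysed from the processed files, for the 12 libraries of Col-0 and hda6 at 22 °C and 37 °C. Per the submitters' processing notes, the authors used CASAVA, HISAT2 2.2.1, featureCounts 2.0.1 and DESeq2 1.30.1 with TAIR10. Their deposited FPKM table holds 1 value per gene and group. Their deposited comparison tables hold, per gene, a baseMean (a mean normalised signal over the libraries compared), a log2 fold change with its SE on the log2 scale, a Wald score, a p-value and an adjusted p-value.

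The deposited log2 fold change of hda6 against Col-0 at 22 °C was subtracted from that at 37 °C and the squared SEs were summed. These tables share no library. A Wald test (2-sided, normal) was adjusted by the method of Benjamini and Hochberg over the 20598 genes with an adjusted p in both tables, and called at an adjusted p under 0.05 (scipy 1.17.1). Lists are described by counts and medians.

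Each FPKM value is a mean over 3 libraries. Whole reads per library were recovered as the integers that give the FPKM mean and the deposited baseMean together, and libraries are known by their totals alone. As a check, 20548 genes gave the baseMean of the heat table, not used in the recovery, within a relative difference of 1.56e-09. Reads were recovered for 22857 of 25372 genes at 22 °C and 21068 of 24030 at 37 °C. They were tested as an alternative with limma voom 3.58.1 (R 4.3.3), with 11 libraries for each leave-one-out fit.

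Named were the 12 largest differences and 8 largest scores in each direction among called genes with at least 1 FPKM in a group and above 0 in all 4, HDA6, up to 4 genes per list by score, and up to 6 called genes listed at 0 in a group. Further called list members and genes called on opposite sides were added after their values were seen. The 21 lists and the comparison itself were chosen with earlier results of these data known. Promoters were read from RefSeq TAIR10.1, to which all 32548 gene IDs matched.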

Additional observations from a re-analysis of the deposited data

Results flagged for a closer look

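In 42 genes hda6 lay on opposite sides of Col-0 at the 2 temperatures, each side called, with the difference of differences called too. It was above 0 in 24 of them and below 0 in 18. Those named are GASA1 (-0.82), AT4G36648, an RNA with no coding annotation (-0.90), and XTH9, a cell wall xyloglucan enzyme (-0.64), which were higher in hda6 at 22 °C and lower at 37 °C, and HSP21 (6.43), HSP17.6II (2.99) and HSP17.6C (2.82), which were the reverse. AT4G36648 had 8.58, 9.22 and 9.08 FPKM in Col-0 and 11.2, 11.7 and 11.8 FPKM in hda6 at 22 °C, and 12.2, 12.7 and 12.8 and 8.30, 8.27 and 8.75 FPKM at 37 °C. XTH9 had 32.7, 33.8 and 34.5 FPKM in Col-0 and 40.5, 39.2 and 42.5 FPKM in hda6 at 22 °C, and 31.0, 29.0 and 28.2 and 21.66, 21.6 and 23.2 FPKM at 37 °C. In both genes the libraries of the genotypes did not overlap at either temperature.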

How the results depend on the processing

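The count of 1148 genes was 1094 to 1235 with every listed gene, with genes of at least 1 FPKM, on the FPKM scale, centred on the median or with Col-0 at 22 °C lowered, and the higher count on the FPKM scale was 245. A t distribution with 8 degrees of freedom gave 49 (14 higher, 35 lower), an adjusted p under 0.01 gave 644 (241 and 403) and a 2-fold minimum 130 (27 and 103). The genes called at 37 °C alone were then 2 higher and 23 lower with the t distribution, and 138 higher on the FPKM scale. Over 19434 genes with recovered reads, limma voom called 1317 where the Wald test called 853. Of these 850 were shared and 0 changed sign. The voom count of higher genes was 433. Leaving out 1 library gave 956 to 1619 calls, 261 to 642 of them higher and 662 to 977 lower. The 1619 came without the Col-0 library of 53.4 M at 22 °C. On the FPKM scale 0 clock and 8 photosynthesis genes were called higher and 1 SR factor lower. With Col-0 at 22 °C lowered, chosen after the data were seen, the small heat shock list had 7 higher and 1 lower, the large chaperones 1 higher and 8 lower, and the heat shock factors 1 higher. Among the called named genes, 87 kept the call, 3 changed sign (HSP17.6B -0.53, BAG6 -0.25 and HSP90.1 -0.18) and 9 lost the call. Of the 99 called named genes, a pseudocount of 0.1 FPKM moved 19 by more than their SE and one of 1 FPKM moved 46 and turned AT1G71000 to -0.10. On the FPKM scale 11 named genes lost the call, and with the t distribution 71. The 71 include every called member of the abscisic acid, clock, photosynthesis and oxidative stress lists. The cause of these changes was not tested. No paired analysis was possible because the recovered libraries carry no replicate number. Low depth limits genes such as AT3G24542 and PDF1.2, whose lower group held few reads.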
